A study of Homo sapiens with 8 samples.

Results

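The genes described here are the C2H2 zinc finger genes of human chromosome 19 whose symbols start with ZNF. They were chosen as the protein-coding ZNF genes of chromosome 19 with an FPKM (fragments per kilobase of gene length, scaled to library size) of at least 1 in at least 2 of the 8 libraries. Of 249 such genes on the chromosome, 133 met this minimum, or 53.4%, among 16239 genes of all kinds that did. On the other chromosomes, 198 of 266 protein-coding ZNF genes met it, or 74.4%. Of the 116 chromosome 19 genes below the minimum, 50 had no read in any library. By second-highest library, which decides the choice, the members just inside were ZNF446 at 1.02 FPKM, ZNF112 at 1.03 FPKM and ZNF573 at 1.03 FPKM, and the genes just outside were ZNF792 at 0.873 FPKM, ZNF441 at 0.840 FPKM and ZNF230 at 0.821 FPKM.

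The study asked how HCT116, a line derived from a human colorectal carcinoma, changes when MAPKAPK2 is depleted and when glucose is withdrawn. MAPKAPK2 encodes MK2, a kinase activated by p38 that acts in stress signalling and in the control of mRNA stability. All cells carried a short hairpin RNA (shRNA), and every group held 2 libraries of total RNA. In MAPKAPK2 shRNA 2 cells a second hairpin against MAPKAPK2 was expressed at 20 mM glucose. In MAPKAPK2 shRNA 1 cells the first hairpin was expressed at 20 mM glucose. Control shRNA cells were kept either at 0 mM glucose or at 20 mM glucose, and the labels give 24 h for these. For the MAPKAPK2 shRNA cells the sources used here give no time in culture. Nothing says that the 2 libraries of a group came from separate cultures, so every p-value measures only the spread between these libraries.

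MAPKAPK2 itself averaged 0.891 FPKM in shRNA 2 cells, 2.66 FPKM in shRNA 1 cells, 18.4 FPKM in control cells at 0 mM and 16.3 FPKM in control cells at 20 mM, which fits the hairpin labels of all 8 libraries. The glucose labels cannot be checked by this gene, which was not called between 0 mM and 20 mM (adjusted p = 0.702, limma). The reads assigned to genes numbered between 14252316 and 19975449 per library. Of 10 epithelial markers 6 were tested, 2 were at 0 in every library and 2 (VIL1 and LGALS4) were low, and keratins and EPCAM carried most of their summed FPKM of 1219 and 1554 in shRNA 2 cells, 1380 and 1578 in shRNA 1 cells, 1750 and 1777 in control cells at 0 mM and 1512 and 1548 in control cells at 20 mM. Markers of immune cells reached at most 0.260 FPKM and those of endothelium at most 0.191 FPKM. Of 4 fibroblast and 3 neuron markers, 1 each was tested, and these were at higher levels. COL1A1 lay between 3.84 and 6.72 FPKM and SYT1 between 5.97 and 15.1 FPKM over the 8 libraries, both lower with both hairpins than in the 20 mM control, and their part in the members' values was not tested. In bulk RNA, fewer cells expressing a gene and less of its RNA per cell cannot be told apart.

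C2H2 zinc fingers are small protein modules that grip a zinc ion and read a few bases of DNA each, so a chain of them reads a long site. Many of the chromosome 19 proteins also carry a KRAB domain, which binds the co-repressor TRIM28 (KAP1). TRIM28 in turn brings the histone methyltransferase SETDB1, HP1 proteins and the NuRD complex, and the bound region, often a retrotransposon, is marked by H3K9 methylation and silenced. The genes lie in clusters that grew by tandem duplication, and the bodies of the genes themselves carry H3K9me3 in many cells.

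By annotation, 127 of the 133 members belonged to the C2H2 family, while ZNF414, ZNF738, ZNF428, ZNF888, ZNF761 and ZNF8 were not so annotated. The longest coding sequence of each gene was translated and searched for the C2H2 spacing, which gave a median of 12 fingers per member and at most 31, in ZNF91, a repressor of SVA retrotransposons. A short KRAB-type pattern was found in 86 of 133 members, or 64.7%, against 52 of 198 ZNF genes of other chromosomes, or 26.3%. The members were low in level. Their mean FPKM over the libraries ran between 0.700 and 42.2 with a median of 2.55, against 10.3 for the other tested protein-coding genes of chromosome 19 and 3.81 for the ZNF genes of other chromosomes, and 108 of the 133 stayed below a mean of 5 FPKM.

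The start regions of the members, shown because the members shifted together with shRNA 2, were taken from RefSeq (build GRCh38.p14, 250 bases before to 50 bases after the gene's start). They were matched by symbol for 118 of the 133 members. The word CCGGAA or its reverse complement TTCCGG, the core of an ETS-type site, stood in 56.8% of these promoters, against 48.1% of 160 promoters of other tested ZNF genes and 17.6% of all 27305 promoters in the RefSeq table. CCAAT stood in 51.7% of the members' promoters, 41.2% of those of other ZNF genes and 35.7% of all promoters. GGGCGG stood in 66.1% of the members', 66.2% of the other ZNF genes' and 44.6% of all promoters (both strands in each case). Median GC content was 61.5% in the members, 63% in the other ZNF genes and 58.3% in all promoters. Among the 24 matched members lower with shRNA 2 than with shRNA 1, CCGGAA stood in 70.8%, CCAAT in 50% and GGGCGG in 54.2%. These 24 were picked by their values and are part of the 118, and no difference between the sets was tested. A word match is a description of these letters, and no binding was measured. The 3 sequences shown belong to ZNF132 and ZNF780B, both lower with shRNA 2 than with shRNA 1, and to ZNF587B, which was higher. They are the window chr19:58440104-58440403 on the minus strand, chr19:40056182-40056481 on the minus strand and chr19:57830049-57830348 on the plus strand, written 5′ to 3′ along each gene's strand, with the word in capitals.
ZNF132: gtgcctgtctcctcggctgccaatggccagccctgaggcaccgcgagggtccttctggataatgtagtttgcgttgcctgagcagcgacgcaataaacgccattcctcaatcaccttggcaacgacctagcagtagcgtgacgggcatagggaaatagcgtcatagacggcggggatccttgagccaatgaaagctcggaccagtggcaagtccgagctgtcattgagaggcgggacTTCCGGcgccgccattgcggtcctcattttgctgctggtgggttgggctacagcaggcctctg
ZNF780B: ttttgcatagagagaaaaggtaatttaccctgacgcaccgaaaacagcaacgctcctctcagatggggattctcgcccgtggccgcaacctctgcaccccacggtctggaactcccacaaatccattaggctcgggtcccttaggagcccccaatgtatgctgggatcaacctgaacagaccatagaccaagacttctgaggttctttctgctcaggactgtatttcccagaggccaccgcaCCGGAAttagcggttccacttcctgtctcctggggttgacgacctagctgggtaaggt
ZNF587B: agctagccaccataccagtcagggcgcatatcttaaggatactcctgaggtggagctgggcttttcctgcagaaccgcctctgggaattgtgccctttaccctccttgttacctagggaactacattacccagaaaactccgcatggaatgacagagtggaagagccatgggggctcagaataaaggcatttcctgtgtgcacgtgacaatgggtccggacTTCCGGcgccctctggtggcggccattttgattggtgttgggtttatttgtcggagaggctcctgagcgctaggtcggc
These windows were chosen because they hold the word, which was present in 5 and absent in 4 of the 9 named members matched. It was absent in the lower ZNF14 and ZNF383 and in the higher ZNF101 and ZNF837. Besides the 3 windows shown, it stood in the higher ZNF175 and ZNF616.

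The members shifted together in shRNA 2 cells. Reads recovered from the FPKM values gave the whole family of 249 genes 0.206% and 0.219% of all gene reads in the shRNA 2 libraries, against 0.278% and 0.292% with shRNA 1, 0.273% and 0.283% in control cells at 0 mM and 0.278% and 0.279% in control cells at 20 mM. Both shRNA 2 libraries lay below the other 6. The exact 95% binomial intervals of the 2 shares, which cover counting error only, were 0.204% to 0.208% and 0.217% to 0.222%, and the lowest of the other libraries had an interval of 0.270% to 0.275%.

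The same was seen member by member. Median FPKM of the 133 members was 1.90 and 2.13 in shRNA 2 libraries, 2.59 and 2.73 in shRNA 1 libraries, 2.59 and 2.71 in control libraries at 0 mM and 2.72 and 2.65 in control libraries at 20 mM. On the log2(FPKM + 1) scale, the median deviation of the members from the 20 mM control mean was -0.29 and -0.17 with shRNA 2, 0.02 and -0.01 with shRNA 1, and -0.05 and 0.04 in control cells at 0 mM. In the shRNA 2 libraries 106 and 109 of the 133 members lay below that mean, against 64 and 67 in the shRNA 1 libraries. Of all 16239 tested genes, 7868 and 7963 lay below their own control mean with shRNA 2, and 8286 and 8180 with shRNA 1. The number of members at 1 FPKM or more was 100 and 98 with shRNA 2, 121 and 119 with shRNA 1, 117 and 123 in control cells at 0 mM and 120 and 120 in control cells at 20 mM. Genes of the whole table at 1 FPKM or more were also fewest with shRNA 2, at 13821 and 13965. They numbered 14245 and 14611 with shRNA 1, 14388 and 14240 at 0 mM and 14160 and 14072 at 20 mM. ZNF genes of other chromosomes had median deviations of -0.12 and -0.02 with shRNA 2, so they too were below 0 in both libraries, by less than the members. All protein-coding ZNF genes of other chromosomes took 0.576% and 0.624% of gene reads with shRNA 2, against 0.631% to 0.713% in the other libraries. The other protein-coding genes of chromosome 19 had median deviations of 0.10 and -0.19, so they were split between the 2 libraries.

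**Figure D1:**
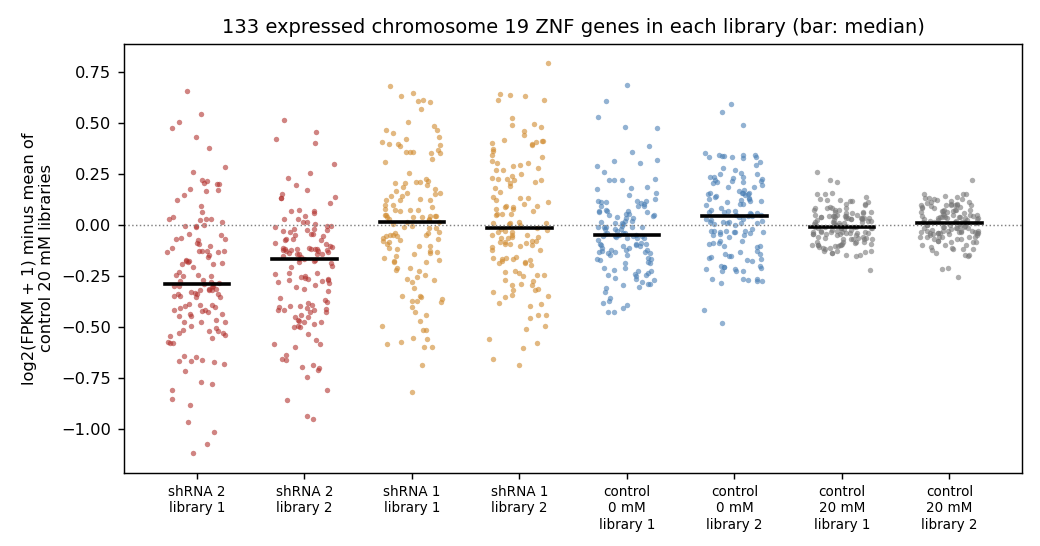
Deviation of each gene's log2(FPKM + 1) from its mean in the 20 mM control libraries (vertical axis), by library (horizontal axis). Each point is 1 of the 133 members and each bar the median. The medians are -0.29 and -0.17 in the 2 shRNA 2 libraries and between -0.05 and 0.04 in the other 6.

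Genes of the family that fell short of the expression minimum, and so entered no test, were also low with shRNA 2. Together they took 0.00417% and 0.00443% of gene reads in shRNA 2 libraries (826 and 750 reads), against 0.00840% and 0.00938% with shRNA 1 (1535 and 1337 reads) and 0.00856% and 0.00875% in control cells at 20 mM (1385 and 1526 reads). Of the 38 such genes with at least 20 reads, 35 had a lower mean share with shRNA 2 than in control cells at 20 mM and 36 a lower one than with shRNA 1. With shRNA 1 the count below control was 18 of 38. The same counts were not made over all genes below the minimum. Whether genes of such low level outside the family were also lower with shRNA 2 is therefore not shown.

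The contrast of shRNA 2 with shRNA 1 takes its difference from the 4 knockdown libraries, while its error also draws on the controls, and asks whether 2 hairpins against the same gene gave the same profile. By limma on log2(FPKM + 1), with Benjamini-Hochberg adjusted p under 0.05 over all tested genes, 29 of the 133 members were lower with shRNA 2 and 5 were higher. Over all 16239 tested genes 9.13% were called lower and 13.0% higher, so the members' balance ran the other way round from that of the table. The median member differed by -0.26 on the log2 scale, with quartiles at -0.50 and -0.03, against a median of 0.03 for all tested genes, and 100 of 133 were below 0. The libraries of the 2 hairpins did not overlap in 83 members with shRNA 2 lower and in 13 with shRNA 2 higher, against 27.9% and 32.0% of all tested genes. For ZNF genes of other chromosomes the shares were 41.4% lower and 28.3% higher. ZNF genes of other chromosomes had 26 lower and 17 higher of 198 with a median of -0.07, and the other coding genes of chromosome 19 had 66 lower and 109 higher of 725 with a median of 0.08. The count of lower calls was smaller without either shRNA 1 library or without the first shRNA 2 library. The count of higher calls was smaller whichever library was left out. Each such fit leaves 1 library in a group, and its counts over all tested genes are not given here. Whether the loss of calls is particular to the members is therefore not shown. Meanwhile the median stayed between -0.29 and -0.23 and all 29 kept their sign in each of the 8 fits that left out a library, though 0 of the 29 were called in all 8. In a limma voom fit on the recovered reads 49 members were lower and 8 higher (11.7% and 16.7% of all genes), with a median of -0.41, and 28 of the 29 were called again.

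**Figure D2:**
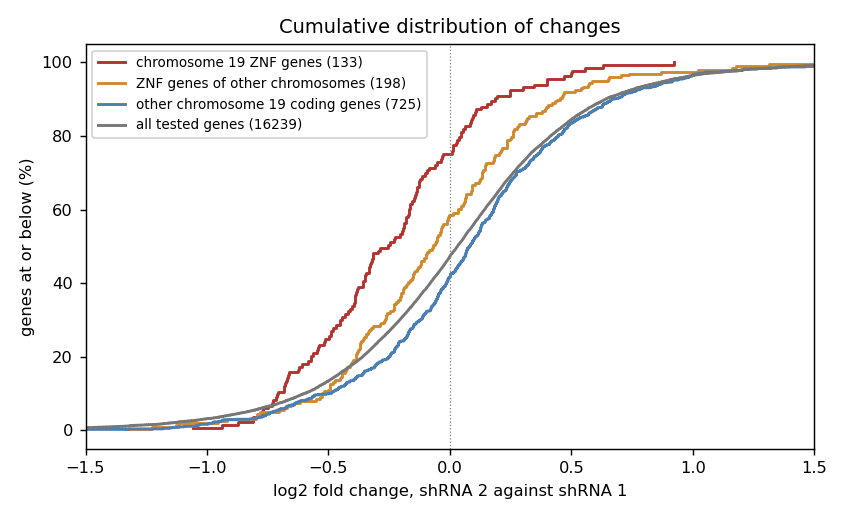
Cumulative percent of genes (vertical axis) by log2 difference of shRNA 2 against shRNA 1 (horizontal axis), for the members, ZNF genes of other chromosomes, other coding genes of chromosome 19 and all tested genes. Over most of its range the members' curve lies to the left of the others, with a median of -0.26 against 0.03 for all tested genes.

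The members with the largest lower values with shRNA 2 carry the KRAB-type pattern. ZNF132 (chr19:58432814-58440222, minus strand, 17 fingers) had 0.599 and 0.687 FPKM in shRNA 2 libraries, 2.38 and 2.47 FPKM in shRNA 1 libraries, 0.973 and 0.846 FPKM in control libraries at 0 mM and 1.00 and 1.47 FPKM at 20 mM. The shRNA 2 libraries were the lowest of the 8 and the shRNA 1 libraries the highest. The difference between the hairpins was -1.06 ± 0.17 (log2, SE) with an adjusted p of 0.00732 in limma, on 40 and 39 reads with shRNA 2 against 158 and 133 with shRNA 1. Against the 20 mM control ZNF132 was also higher with shRNA 1, by 0.62 (adjusted p = 0.0474, limma).

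ZNF14 had 1.65 and 0.906 FPKM with shRNA 2, 3.60 and 3.02 FPKM with shRNA 1 and 2.33 and 2.34 FPKM in control cells at 20 mM. It was lower with shRNA 2 than with shRNA 1 by a log2 difference of -0.94 ± 0.18 (adjusted p = 0.0132, limma), and the shRNA 2 libraries were again below all others. ZNF780B, whose start region is printed above, had 0.888 and 1.16 FPKM with shRNA 2, 2.47 and 2.61 FPKM with shRNA 1, 1.66 and 2.27 FPKM at 0 mM and 1.58 and 1.58 FPKM at 20 mM, a hairpin difference of -0.81 ± 0.16 (adjusted p = 0.0126, limma). For this gene, too, the controls lay between the hairpins. ZNF383 had 0.797 and 0.893 FPKM with shRNA 2, 2.25 and 2.50 FPKM with shRNA 1 and 1.24 and 1.35 FPKM in control cells at 20 mM, a difference of -0.87 ± 0.15 (adjusted p = 0.00786, limma). ZNF211 had 1.82 and 2.11 FPKM with shRNA 2, 3.86 and 4.54 FPKM with shRNA 1 and 2.34 and 2.08 FPKM in control cells at 20 mM, a difference of -0.81 ± 0.14 (adjusted p = 0.00954, limma). In ZNF211 the shRNA 2 and control libraries overlapped, and the shRNA 1 libraries stood above both.

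The 5 members that were higher with shRNA 2 than with shRNA 1 differed in where the controls lay. ZNF101 (chr19:19668796-19683509, plus strand), the neighbour of ZNF14 on the opposite strand, had 4.40 and 4.08 FPKM with shRNA 2, 2.51 and 2.27 FPKM with shRNA 1, 3.22 and 3.61 FPKM at 0 mM and 4.18 and 4.15 FPKM at 20 mM. The shRNA 2 libraries overlapped the 20 mM controls, and the shRNA 1 libraries lay below all others. The hairpin difference was 0.63 ± 0.10 (adjusted p = 0.00734, limma), and shRNA 1 against the 20 mM control gave -0.61 (adjusted p = 0.00956, limma). ZNF837, which lies close to ZNF132, had 2.62 and 1.83 FPKM with shRNA 2, 0.537 and 0.851 FPKM with shRNA 1, 2.00 and 2.37 FPKM at 0 mM and 1.15 and 1.46 FPKM at 20 mM, a hairpin difference of 0.92 ± 0.19 (adjusted p = 0.0164, limma) on 103 and 61 reads with shRNA 2 against 21 and 27 with shRNA 1. Here the shRNA 1 libraries were the lowest of the 8, and the 0 mM controls overlapped shRNA 2.

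ZNF587B had 5.62 and 5.23 FPKM with shRNA 2, 3.52 and 4.24 FPKM with shRNA 1 and 3.43 and 3.67 FPKM in control cells at 20 mM, a hairpin difference of 0.40 ± 0.11 (adjusted p = 0.0416, limma). Its shRNA 2 libraries were the highest of the 8, but 11.6% of its 50-base words occur in other genes and 14.6% of its exon bases overlap another gene, so its reads may be shared. ZNF616 had 2.36 and 3.35 FPKM with shRNA 2, 1.51 and 1.70 FPKM with shRNA 1 and 2.65 and 2.96 FPKM in control cells at 20 mM, a hairpin difference of 0.56 ± 0.16 (adjusted p = 0.046, limma). ZNF175, an antiviral factor studied in macrophages, had 2.37 and 2.92 FPKM with shRNA 2, 1.53 and 1.62 FPKM with shRNA 1 and 2.03 and 1.83 FPKM in control cells at 20 mM, a hairpin difference of 0.50 ± 0.14 (adjusted p = 0.0486, limma). The shRNA 1 libraries of ZNF616 lay below all others, and the shRNA 2 libraries of ZNF175 above all others. These 3 calls were the least steady: ZNF616 kept its call in 1 of the 8 fits that left out a library, and ZNF175 and ZNF587B in 0.

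**Figure D3:**
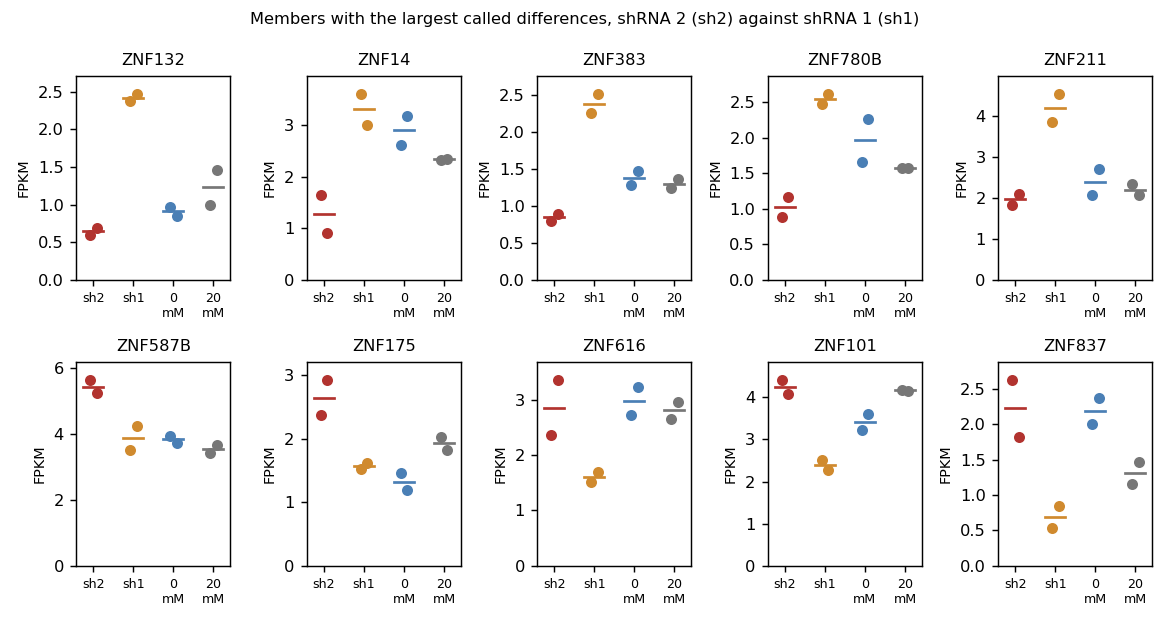
FPKM of named members in each of the 8 libraries, ordered shRNA 2, shRNA 1, 0 mM and 20 mM control. Each point is 1 library and each line the mean of a group. ZNF132 runs between 0.599 and 2.47 FPKM, with the shRNA 2 libraries lowest and the shRNA 1 libraries highest.

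Members with and without the KRAB-type pattern were set side by side. Of the 86 with it, 25 were lower and 4 higher with shRNA 2 than with shRNA 1, with a median of -0.37. Of the 47 without it, 4 were lower and 1 higher, with a median of -0.16. Among ZNF genes of other chromosomes, the 52 with the pattern had 7 lower and 3 higher and a median of -0.21. Whether these groups differ was not tested. Across the members, the hairpin difference ran with mean FPKM at a Spearman rho of 0.26, against 0.19 across all tested genes, with gene length at -0.19 and with the number of fingers at -0.10. These are descriptions across genes that share the same 8 libraries, and genes are not independent replicates.

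Against the 20 mM control, 14 members were lower with shRNA 2 and 2 higher by the same limma test, where 7.73% of all tested genes were lower and 11.1% higher. The median member differed by -0.25, and 110 of 133 were below 0, or 82.7%, against 49.1% of all tested genes. The libraries did not overlap in 80 members with shRNA 2 lower and in 9 with it higher, against 27.5% and 29.9% of all tested genes. For ZNF genes of other chromosomes the shares were 38.4% lower and 21.2% higher. This contrast shares the shRNA 2 libraries with that between the hairpins, so these counts are not independent of those above. The lower members included ZNF766, ZNF226, ZNF738, ZNF567 and ZNF274, of which ZNF274 is known to bring SETDB1 and TRIM28 to zinc finger genes. ZNF766 (chr19:52269571-52296046, plus strand) had 1.83 and 2.13 FPKM with shRNA 2, 3.86 and 3.68 FPKM with shRNA 1, 4.18 and 4.52 FPKM at 0 mM and 3.88 and 4.35 FPKM at 20 mM. The shRNA 2 libraries lay far below the other 6, by -0.78 ± 0.11 against control (adjusted p = 0.00453, limma), and it was the 1 member of the 14 called in every fit that left out a library. ZNF738 had 1.28 and 1.51 FPKM with shRNA 2 against 3.37 and 4.29 FPKM in control cells at 20 mM, a ratio of mean FPKM of 0.365 (adjusted p = 0.00805, limma).

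ZNF274 had 1.25 and 1.06 FPKM with shRNA 2, 1.89 and 2.12 FPKM with shRNA 1, 2.64 and 2.75 FPKM at 0 mM and 2.14 and 2.26 FPKM at 20 mM. Its shRNA 2 libraries were the lowest, and the difference from the 20 mM control was -0.57 (adjusted p = 0.0218, limma). The SVA repressor ZNF91 had 1.14 and 1.06 FPKM with shRNA 2, 2.20 and 2.26 FPKM with shRNA 1 and 1.93 and 1.79 FPKM in control cells at 20 mM. It was lower with shRNA 2 than with shRNA 1 by -0.62 ± 0.14 (adjusted p = 0.0226, limma), while its difference from control, -0.45, had an adjusted p of 0.0731 in limma. ZNF350 (ZBRK1), a repressor that binds BRCA1, had 3 and 6 reads with shRNA 2, 64 and 29 reads with shRNA 1, 72 and 95 reads at 0 mM and 91 and 80 reads at 20 mM. The shRNA 2 libraries were the lowest of the 8, at 0.0349 and 0.0821 FPKM. Its difference between shRNA 2 and control was -0.98 ± 0.25 on the log2(FPKM + 1) scale (adjusted p = 0.0388, limma), a scale that understates low genes, and -4.21 in the read-based fit (adjusted p = 0.00127, limma voom). ZNF91, ZNF274 and ZNF350 were picked after their values were seen.

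The higher members were ZNF587B, at 0.50 ± 0.11 (adjusted p = 0.022, limma), and ZNF160, at 0.44 ± 0.12 (adjusted p = 0.0486, limma). ZNF160 had 4.07 and 4.56 FPKM with shRNA 2, 2.80 and 3.61 FPKM with shRNA 1 and 2.94 and 2.87 FPKM in control cells at 20 mM. Its shRNA 2 libraries were the highest of the 8, but it lost its call in all 8 fits that left out a library. The count of lower members was 3 without the first and 1 without the second 20 mM library, and the median was -0.17 without the first shRNA 2 library. The read-based fit called 34 members lower and 2 higher, against 10.0% and 14.2% of all genes.

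With shRNA 1 the share of members called by the main limma test was below that of all tested genes in both directions. Against the 20 mM control 8 were higher and 5 lower, where 9.35% of all tested genes were higher and 10.5% lower, and the median member differed by 0.03 with 64 of 133 below 0. The libraries did not overlap in 45 members with shRNA 1 higher and in 42 with it lower, against 31.7% and 34.0% of all tested genes. That median was -0.02 under quantile normalization and -0.08 among members with a mean of at least 2 FPKM, so it has no steady sign. The 8 higher members, ZNF558, ZNF440, ZNF302, ZNF383, ZNF114, ZNF211, ZNF587 and ZNF132, all carry the KRAB-type pattern. ZNF558 had 5.49 and 6.18 FPKM with shRNA 1, 3.68 and 3.85 FPKM with shRNA 2 and 3.75 and 3.65 FPKM in control cells at 20 mM. The shRNA 1 libraries stood above the other 6, and above control by 0.54 ± 0.10 (adjusted p = 0.0113, limma). Without either 20 mM library, or without the second shRNA 1 library, 0 members were called higher (1 without the first shRNA 1 library). The count of lower members was 0 and 1 without the first or second shRNA 1 library, 0 without either 20 mM library and 9 without an shRNA 2 library. The read-based fit gave 18 higher and 9 lower, against 11.98% and 13.5% of all genes.

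Taking both hairpins against the 20 mM control and requiring the same sign in each, 8 members were lower (ZNF627, ZNF738, ZNF45, ZNF226, ZNF766, ZNF480, ZNF845 and ZNF865) and 1 higher (ZNF440). The shares of all tested genes were 7.77% lower and 9.56% higher, and the members' median was -0.11 with 91 below 0. The 4 knockdown libraries lay below both controls in 30 members and above them in 4, against 14.9% and 16.0% of all tested genes. Quantile normalization gave 10 lower and 0 higher, where 8.83% of all tested genes were lower and 9.32% higher. The read-based fit gave 18 lower and 2 higher, where 10.9% of all tested genes were lower and 11.8% higher. The lower members were thus 7.52% of the 133 under quantile normalization, below the share of all genes. In the read-based fit they were 13.5%, above it. ZNF627 (chr19:11559374-11619135, plus strand) had 3.84 and 4.12 FPKM with shRNA 2, 3.82 and 3.83 FPKM with shRNA 1, 6.24 and 7.66 FPKM at 0 mM and 6.92 and 6.61 FPKM at 20 mM. All 4 knockdown libraries lay below all 4 controls, and the difference was -0.66 ± 0.10 (adjusted p = 0.00555, limma). ZNF845, ZNF480 and ZNF865 showed the same order, with differences of -0.61 ± 0.12, -0.56 ± 0.10 and -0.34 ± 0.08.

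ZNF45 had 2.50 and 3.04 FPKM with shRNA 2, 3.18 and 3.39 FPKM with shRNA 1, 3.44 and 3.97 FPKM at 0 mM and 5.08 and 4.87 FPKM at 20 mM. The knockdown libraries were lowest and the 20 mM controls highest, a difference of -0.57 ± 0.10 (adjusted p = 0.0112, limma). For ZNF738, ZNF226 and ZNF766 the value came mostly from shRNA 2, which was itself lower than shRNA 1 by log2 differences of -0.77, -0.68 and -0.68. ZNF440 had 3.50 and 3.52 FPKM with shRNA 2, 5.43 and 5.24 FPKM with shRNA 1, 2.59 and 3.57 FPKM at 0 mM and 2.92 and 3.12 FPKM at 20 mM, a difference of 0.41 ± 0.11 (adjusted p = 0.0489, limma), and 7.89% of its 50-base words occur in other genes, mainly ZNF439. In ZNF440 the shRNA 2 libraries overlapped the controls at 0 mM but not those at 20 mM. The 8 lower calls became 0 without either 20 mM library and 4 without either shRNA 1 library, and the higher call was lost without any of the 6 knockdown or 20 mM libraries, while all 9 members kept their sign in every such fit.

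Sorted by start, the family fell into 16 clusters when a gap of over 1 Mb opened a new one. The 7 clusters with at least 5 members held 119 of the 133, namely cluster 2 at 7.1 to 9.8 Mb (11 of 16 family genes), cluster 3 at 11.5 to 12.6 Mb (10 of 26), cluster 5 at 19.7 to 24.1 Mb (12 of 37), cluster 9 at 36.2 to 37.8 Mb (8 of 26), cluster 12 at 43.5 to 45.1 Mb (14 of 24), cluster 15 at 51.6 to 53.6 Mb (24 of 40) and cluster 16 at 55.5 to 58.5 Mb (40 of 59). With shRNA 2 against the 20 mM control all 7 had a median below 0. It was lowest in cluster 15, at -0.35 with 21 of 24 members below 0, and in cluster 12, at -0.33 with 12 of 14. It was nearest 0 in cluster 3, at -0.09 with 7 of 10. Cluster 9 had a median of -0.30, with 8 of 8 below 0.

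The clusters parted more with shRNA 1. In cluster 3 the median was 0.28 against control, between 0.20 and 0.33 over the fits that left out a library, and the median deviation of both shRNA 1 libraries was high, at 0.28 and 0.29. Its members were mixed, with 6 above 0 and 4 below, and 1 called higher and 1 lower. In cluster 5, that of ZNF91, ZNF14 and ZNF101, the median was -0.20 and ran between -0.31 and -0.10. All 12 members there were below 0 in the mean of both hairpins, and the median deviation was -0.36 and -0.18 with shRNA 2 and -0.31 and -0.10 with shRNA 1. The other 5 clusters had medians between -0.10 and 0.07 with shRNA 1. Between the hairpins the medians were -0.46 in cluster 9, -0.36 in cluster 3 and -0.04 in cluster 5. No difference between clusters was tested.

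**Figure D4:**
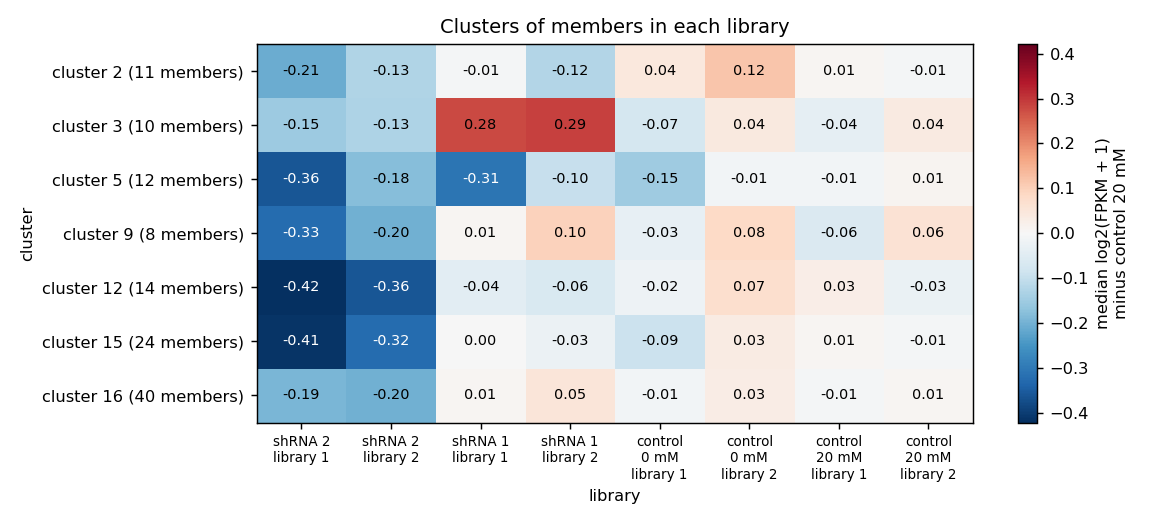
Median deviation of each cluster's members from the 20 mM control mean, log2(FPKM + 1), by library. All 7 clusters are below 0 in both shRNA 2 libraries, and cluster 3 is at 0.28 and 0.29 in the shRNA 1 libraries.

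Within a cluster, neighbours differed from each other. Over 118 pairs of neighbouring members, Spearman's rho of their log2 differences was 0.04 for shRNA 2 against control, 0.13 for shRNA 1 against control and 0.14 between the hairpins. ZNF101 and ZNF14 in cluster 5 differed in sign between the hairpins, as did ZNF837 and ZNF132 in cluster 16, and that cluster held both 9 of the 29 lower members and 2 of the 5 higher. The 14 members in 8 smaller clusters had a median of -0.12 with shRNA 2 and of 0.31 with shRNA 1 against control.

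**Figure D5:**
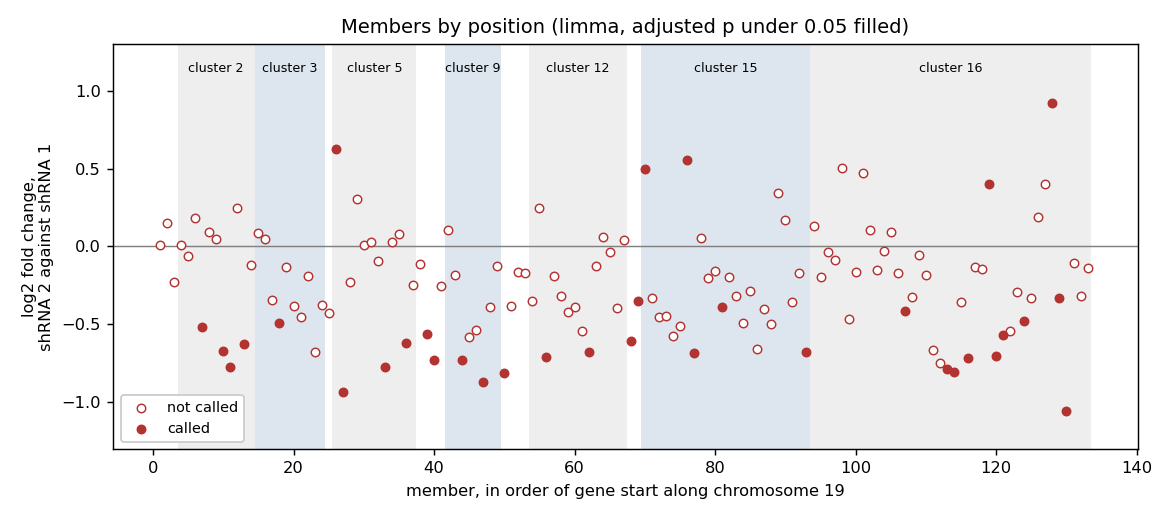
Log2 difference of each member in order along the chromosome, for shRNA 2 against shRNA 1, with called members filled. The 29 lower and 5 higher members are spread over the clusters, and both kinds stand in clusters 5, 15 and 16.

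Withdrawal of glucose moved no member past the threshold. Limma called 0 of 133 between control cells at 0 mM and 20 mM, as it did for 0.0% of all tested genes. The median member differed by -0.01, with 66 above 0 and 67 below. At an unadjusted p under 0.05 there were 5 members, and the lowest adjusted p was 0.497. The read-based fit also called 0 members, with 9 at an unadjusted p under 0.05 and a lowest adjusted p of 0.164, where 0.154% of all genes were called higher and 0.0185% lower. The libraries did not overlap in 28 members with 0 mM higher and in 26 with 0 mM lower, against 19.1% and 22.2% of all tested genes. Among the members with the smallest p in each direction, ZNF497, which reached 1 FPKM in the 0 mM libraries alone and so met the expression minimum through the group where it is high, had 1.43 and 1.63 FPKM at 0 mM against 0.936 and 0.577 FPKM at 20 mM, a difference of 0.53 ± 0.22 (adjusted p = 0.56, limma), and 45.3% of its exon bases overlap another gene. On the lower side ZNF45 stood at 3.44 and 3.97 FPKM at 0 mM against 5.08 and 4.87 FPKM at 20 mM, a difference of -0.35 ± 0.12 (adjusted p = 0.497, limma). The other named members were ZNF837, ZNF543, ZNF333 and ZNF160, at 0.47, 0.47, 0.41 and 0.27, and ZNF175, ZNF296, ZNF580 and ZNF101, at -0.33, -0.32, -0.32 and -0.23.

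The 5 members of highest level carry no KRAB-type pattern. ZNF146, a protein made of fingers alone, had 37.9 and 40.3 FPKM with shRNA 2, 43.9 and 45.1 FPKM with shRNA 1, 39.6 and 46.2 FPKM at 0 mM and 39.9 and 45.0 FPKM at 20 mM. ZNF121 had 18.6 and 24.0 FPKM with shRNA 2 against 21.6 and 22.9 FPKM in control cells at 20 mM. In both genes the shRNA 2 libraries overlapped the 20 mM controls. For ZNF146 they lay below both shRNA 1 libraries. For ZNF121 the log2 difference of shRNA 1 from the 20 mM control was -0.36 to -0.28 over the fits that left out a library. It was not called lower in that contrast by the main test. ZNF579 and ZNF787 reached at most 18.6 and 19.4 FPKM, and ZNF581 had 11.9 and 7.80 FPKM with shRNA 2, 11.3 and 10.6 FPKM with shRNA 1 and 13.7 and 16.2 FPKM at 20 mM. None of the 5 was called for both hairpins or between the hairpins.

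The proteins that KRAB zinc fingers work through were followed in a list of 24 tested genes. For both hairpins against control 5 were lower and 2 higher, where 7.77% of all tested genes were lower and 9.56% higher. TRIM28, the KRAB co-repressor, had 180 and 161 FPKM with shRNA 2, 189.7 and 161 FPKM with shRNA 1, 237 and 228 FPKM at 0 mM and 266 and 259 FPKM at 20 mM. The knockdown libraries lay below all controls, by -0.60 (adjusted p = 0.00889, limma), with -0.62 for shRNA 2 alone and -0.58 for shRNA 1 alone. DNMT1, the maintenance DNA methyltransferase, had 14.5 and 14.1 FPKM with shRNA 2, 24.6 and 23.9 FPKM with shRNA 1, 35.6 and 36.8 FPKM at 0 mM and 41.9 and 39.4 FPKM at 20 mM, in that order without overlap. UHRF1, which guides DNMT1, and the HP1 gene CBX5 were also lower, at -1.29 and -0.54, though CBX5 was not called for shRNA 2 alone, at -0.20. KIAA1551 (RESF1), a SETDB1 partner, was higher at 1.13 and CHD3 of the NuRD complex at 0.38. SETDB1 itself was not called.

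Between the hairpins, DNMT1 was lower with shRNA 2, at -0.72 (adjusted p = 0.00184, limma), and DNMT3B, DNMT3A, UHRF1, CBX5 and HDAC1 were higher. DNMT3B, a de novo DNA methyltransferase, had 16.3 and 17.0 FPKM with shRNA 2 against 6.44 and 7.01 FPKM with shRNA 1. In a list of 11 heterochromatin genes the H3K9 demethylase KDM4B, at 12.1 and 10.1 FPKM with shRNA 2 against 4.63 and 4.30 FPKM with shRNA 1, was higher by 1.14, and its relative KDM4A, at 2.73 and 3.22 FPKM with shRNA 2 against 8.11 and 8.52 FPKM with shRNA 1, was lower by a log2 difference of -1.23. CBX7 was higher, and the H3K9 methyltransferase EHMT1 was lower at -0.46. Of 13 other C2H2 genes of chromosome 19 with ZFP, ZSCAN or other symbols, 4 were tested, none was called in any contrast, and 7 were at 0 in every library. No gene of these lists was called for glucose. Whether any of these genes bears on the members' levels was not tested.

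Sequence shared between these duplicated genes limits single members. Over 20% of exon bases overlapped another gene in 14 members. Over 5% of 50-base words recurred in genes that do not overlap the member, neighbours in the cluster included, in 24. Library preparation is described as either strand-marking or not, and the sources used here do not give the strand setting, so reads of overlapping genes on opposite strands cannot be told apart. ZNF587, for example, which was lower with shRNA 2 than with shRNA 1, shares 35.0% of its exon bases with ZNF814 on the other strand. Among the 99 members with little of either, 23 were lower and 4 higher with shRNA 2 than with shRNA 1, and the median was -0.32. The share of mitochondrial reads differed between libraries, at 7.06% and 9.10% with shRNA 2, 11.1% and 9.62% with shRNA 1 and 6.83% and 7.82% in control cells at 20 mM, and its part in the members' shift was not tested. Of the 6 tested epithelial markers, 4 were lower with shRNA 2 than in the 20 mM control (EPCAM, CDH1, KRT8 and KRT18). EPCAM had 70.0 and 68.2 FPKM with shRNA 2, 138.6 and 131 FPKM with shRNA 1 and 108 and 116 FPKM in control cells at 20 mM. Their part in the members' shift was not tested.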

How the data were processed

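RNA-seq libraries of HCT116 cells were analysed, 2 in each of 4 groups. Per the submitters' processing notes, reads were aligned with HISAT2 2.0.5, counted with featureCounts 1.5.0-p3, and DESeq2 1.20.0 was used. The deposited table gives FPKM per gene as the authors computed it, with no counts, and its identifiers match GENCODE 29 (GRCh38) in 58724 of 58735 genes. Within a library, FPKM times gene length came in steps of 1 constant size, and all values lay within 0.001 of a whole number of steps, so whole read counts were recovered from the deposited values. Library sizes behind the FPKM are those the authors used, and reads assigned to genes were 0.932 to 1.05 times them.

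The main test was limma 3.58.1 (R 4.3.3, trend) on log2(FPKM + 1), with all 4 group means in 1 fit (4 residual degrees of freedom), over 16239 genes at FPKM 1 or more in at least 2 libraries, with Benjamini-Hochberg adjustment over all of them and a threshold of 0.05. For both hairpins a call also needed the same sign in each. The test was tested on simulated data. Alternatives were limma voom on recovered reads, upper-quartile and quantile scaling, a pseudocount of 0.1, no filter, the replicate number as a block, and leaving out each library. The members are described by counts and medians beside all tested genes, and no set test was made.

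KRAB-type patterns ([FLV]xxEEWxx[LM]) and C2H2 fingers were searched in the longest GENCODE coding sequence, and 50-base words were compared across all transcripts. Named members were the largest called changes per contrast without overlap for both hairpins, the 5 largest called in each direction between hairpins, the 5 smallest p in each direction for glucose, the 5 highest in level and the best member per cluster; any tested gene of the lists could be named, and 1 is not reported here. The members and lists were chosen with earlier results of these data known.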

Additional observations from a re-analysis of the deposited data

Results flagged for a closer look

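The 2 hairpins against MAPKAPK2 differed from each other in the members, by the limma test of the difference itself: 29 of 133 members were lower with shRNA 2 than with shRNA 1 and 5 were higher. The hairpins also differed across the whole table, with 9.13% of all 16239 tested genes lower and 13.0% higher. Among the named members, those lower with shRNA 2 were ZNF132 at -1.06, ZNF14 at -0.94, ZNF383 at -0.87, ZNF780B at -0.81, ZNF211 at -0.81, ZNF738 at -0.77, ZNF766 at -0.68, ZNF558 at -0.52 and ZNF440 at -0.49, all on the log2(FPKM + 1) scale. Those higher were ZNF837 at 0.92, ZNF101 at 0.63, ZNF616 at 0.56, ZNF175 at 0.50 and ZNF587B at 0.40. MAPKAPK2 also differed between the hairpins, at 0.891 FPKM with shRNA 2 against 2.66 FPKM with shRNA 1, and its part in these differences was not tested.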

How the results depend on the processing

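Depth and 2 libraries per group limit these counts: members had a median of 168 to 270 reads per library, and the calls depended on the fit more than the medians did. No called member changed sign under the alternatives run, while the shRNA 1 median, near 0, did. For both hairpins, higher calls were 0 with a pseudocount of 0.1, no filter, quantile scaling or the replicate block, and 2 with recovered reads or upper-quartile scaling; lower calls were 5 with no filter, 18 with reads and 23 with upper-quartile scaling. For shRNA 1, higher calls were 3 with no filter, 18 with reads and 19 with upper-quartile scaling, and lower calls were 9 with reads and 8 with upper-quartile scaling. For shRNA 2, higher calls were 1 with a pseudocount of 0.1 or quantile scaling and 0 with no filter; lower calls were 8, 34 and 50 with no filter, reads and upper-quartile scaling. Between hairpins, higher calls were 2 with no filter and 8 with reads. Lower calls there were 14, 49 and 60 with no filter, reads and upper-quartile scaling. All tested genes were also called lower more often. Between hairpins 9.13% were lower in the main fit, 11.7% with reads and 16.4% with upper-quartile scaling. For shRNA 2 these shares were 7.73%, 10.03% and 14.03%, and for both hairpins 7.77%, 10.9% and 12.8%. For shRNA 1 the shares called higher were 9.35%, 11.98% and 12.5%. The rise in these calls was therefore not particular to the members.

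Medians with a pseudocount of 0.1, reads and upper-quartile scaling were -0.16, -0.18 and -0.22 for both hairpins, -0.34, -0.37 and -0.48 for shRNA 2, and -0.42, -0.41 and -0.54 between hairpins. For members with a mean FPKM of at least 2 they were -0.083 for shRNA 1 and -0.17 between hairpins, -0.32 between hairpins with little shared sequence (an alternative added after seeing the data), and -0.024 for shRNA 1 with quantile scaling. Upper-quartile scaling moved the median of all genes by -0.11 for shRNA 2 and -0.12 between hairpins; relative to the median of all genes the members differed by -0.38 and -0.45 in the read-based fit both with and without it, and by -0.26 and -0.29 on log2(FPKM + 1). The cause of these changes was not tested.

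Leaving out 1 library gave ranges of 0 to 0 calls and medians of -0.049 to 0.044 for glucose; 0 to 1 higher, 0 to 12 lower and -0.12 to -0.10 for both hairpins; 0 to 9 higher, 0 to 9 lower and -0.014 to 0.030 for shRNA 1; 0 to 1 higher, 1 to 16 lower and -0.29 to -0.17 for shRNA 2; and 0 to 3 higher, 2 to 29 lower and -0.29 to -0.23 between hairpins. With the replicate block the calls were 0 higher and 12 lower for both hairpins, 7 and 7 for shRNA 1, 2 and 15 for shRNA 2, and 5 and 31 between hairpins. Deviations of same-numbered libraries correlated at -0.030 to 0.179 over all genes and at 0.0012 to 0.379 over the members (highest for shRNA 2 with 0 mM, and 0.341 for shRNA 2 with shRNA 1), so not every pair of groups shows the numbers to pair the libraries.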
